A study of Mus musculus with 24 samples.

Results

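All 24 of the 24 sWAT (subcutaneous white adipose tissue) samples of the study entered 1 comparison, 12 Gdf15-KO mice against 12 WT mice, with sex as a covariate and no interaction between sex and genotype. The question was what the loss of GDF15 changed in sWAT when females and males were pooled, and which of these changes lay beyond the chromosomal neighbourhood of the deleted gene. The groups were 6 female Gdf15-KO, 6 female WT, 6 male Gdf15-KO and 6 male WT mice, all 20 weeks old and fed ad libitum. Per the study's methods the knockout is whole-body, on a C57BL/6/129/SvJ background, and heterozygous parents gave WT littermates as controls. Adipocytes are therefore not the only cells without GDF15, and no group separates the deletion from chromosome 8 alleles inherited with it.

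GDF15 is a hormone of the TGF-beta superfamily that cells secrete under stress, and its known receptor, GFRAL, is found in the hindbrain. White adipocytes store fatty acids as triglyceride in lipid droplets and can make them from glucose through de novo lipogenesis. Beige adipocytes lie among them, hold more mitochondria and express proteins such as CIDEA, which enlarges lipid droplets, and UCP1, which uncouples respiration.

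Expected counts summed to between 22521358 and 24500575 per mouse. Gdf15 (gene ID 23886, chromosome 8 from 71082038 to 71091537, GRCm39) checked the labels, with 0 to 1 counts per mouse in female Gdf15-KO and 0 to 2 in male Gdf15-KO mice, against 7 to 17 in female WT and 14 to 31 in male WT mice. Its log2 fold change (Gdf15-KO over WT, as for every value that follows) was -4.67 (SE 0.34, adjusted p = 2.07e-09 from edgeR). All 10 adipocyte markers, such as adiponectin and perilipin 1, were found, and their summed CPM (TMM-normalized counts scaled to library size) was 10700 to 14200 in female Gdf15-KO and 14400 to 23200 in male Gdf15-KO mice, against 9260 to 16100 in female WT and 12800 to 19400 in male WT mice. In bulk tissue, fewer cells of a type and less RNA per cell cannot be told apart.

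Of 14982 genes tested, 64 (0.427%) were called in the pooled comparison, at an adjusted p under 0.05 in edgeR's quasi-likelihood test. Of these, 59 were lower in Gdf15-KO (0.394%) and 5 higher (0.0334%). Within 20 Mb of Gdf15, 46 of 254 genes were called (18.1%), 42 of them lower and 4 higher. These 46 filled 4.2 Mb around Gdf15, and the farthest lay 2.28 Mb from it. Elsewhere on chromosome 8, 0 of 516 genes were called. Outside this window 18 of 14728 genes were called (0.122%), 17 lower (0.115%) and 1 higher, on 13 different chromosomes. The 18 comprised the lipid droplet gene Cidea, 6 genes of mitochondrial proteins, and 11 genes of other functions. None was among the 340 genes without a position.

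**Figure D1:**
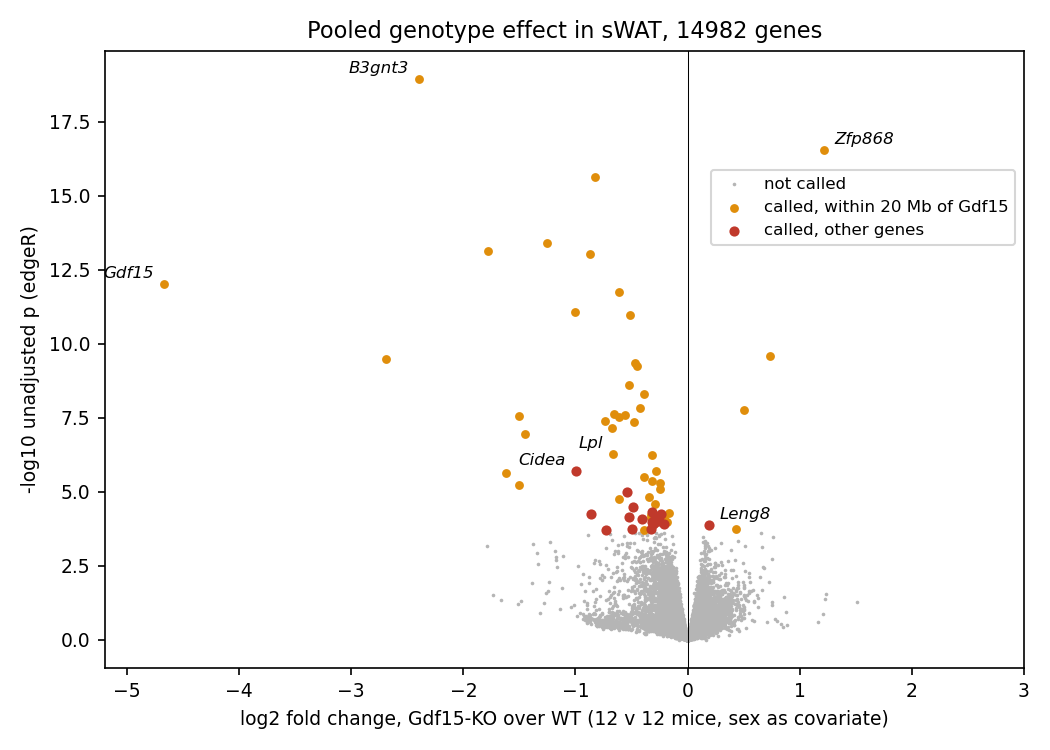
Each point is 1 of the 14982 genes, with its pooled log2 fold change (Gdf15-KO over WT) on the x axis and the -log10 of its unadjusted edgeR p on the y axis. Orange points are the 46 called genes within 20 Mb of Gdf15 and red points the 18 called elsewhere, of which only Leng8 lies right of 0.

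The number 18 rested on the window. Benjamini-Hochberg adjustment sets a looser threshold when many small p-values are in the table, and the 46 genes near Gdf15 held most of the smallest ones. With the p-values adjusted over the 14728 genes outside the window alone, 1 gene passed in edgeR, which was Cidea (adjusted p = 0.0301), and the next smallest adjusted p was 0.077. DESeq2 on the same 24 mice called 227 genes (1.52%), 176 of them outside the window, and 129 outside the window with that adjustment. All 18 genes called by edgeR were among the DESeq2 calls. At an unadjusted p under 0.05 edgeR counted 1226 lower and 587 higher genes outside the window. Just beyond the threshold lay the complex I genes Ndufb3 and Ndufb5, Chn1, Xrcc6 and Fn3k, each at an adjusted p of 0.0506 from edgeR, whereas the last genes inside it, P2rx5 and Cox17, had 0.0447.

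Cidea (gene ID 12683, chromosome 18 from 67476317 to 67501224) showed the smallest p outside the window. It ranged from 11.2 to 27.3 CPM in female Gdf15-KO mice (median 18.9), against 26.2 to 59.9 CPM in female WT mice (median 43.3). Male levels ran from 41.3 to 64.5 CPM in male Gdf15-KO mice (median 56.5), against 47.7 to 127.5 CPM in male WT mice (median 97.2). All 12 Gdf15-KO mice lay below the mean of the WT mice of their sex, but the ranges of the genotypes overlapped in both sexes because the lowest WT mouse of each sex lay among the Gdf15-KO mice. The pooled log2 fold change was -0.99 (SE 0.16, adjusted p = 0.00102 from edgeR), a level 49.8% lower in Gdf15-KO.

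Called genes also included some that take part in adipocyte metabolism or mark brown and beige fat cells. Pank1 (gene ID 75735, chromosome 19 from 34784339 to 34856865), a pantothenate kinase that starts coenzyme A synthesis, ranged from 11.3 to 15.8 CPM in female Gdf15-KO mice (median 14.7), against 12.5 to 23.2 CPM in female WT mice (median 19.4). The male values spanned 12.5 to 15.3 CPM in male Gdf15-KO mice (median 13.7), against 15.9 to 27.5 CPM in male WT mice (median 20.2). Male genotypes did not overlap for Pank1, and its pooled log2 fold change was -0.48 (SE 0.09, adjusted p = 0.0121 from edgeR). P2rx5 (gene ID 94045, chromosome 11 from 73050362 to 73066157), an ATP-gated ion channel known as a surface marker of brown adipocytes, ranged from 6.22 to 12.4 CPM in female Gdf15-KO mice (median 8.91), against 7.08 to 26.5 CPM in female WT mice (median 16.2). In males it ranged from 7.91 to 13.5 CPM in male Gdf15-KO mice (median 11.7), against 11.9 to 21.5 CPM in male WT mice (median 16.2). With a log2 fold change of -0.72 (SE 0.16, adjusted p = 0.0447 from edgeR), P2rx5 changed by more than Pank1 but varied more among the WT mice. Ddo (gene ID 70503, chromosome 10 from 40505648 to 40557950) encodes D-aspartate oxidase, a peroxisomal enzyme. It ranged from 15.7 to 21.7 CPM in female Gdf15-KO mice (median 17.6), against 22.4 to 29.2 CPM in female WT mice (median 24.3). Male levels ran from 12.1 to 17.5 CPM in male Gdf15-KO mice (median 15.1), against 12.99 to 23.9 CPM in male WT mice (median 20.7). The female genotypes did not overlap for Ddo, whose pooled log2 fold change was -0.41 (SE 0.09, adjusted p = 0.0245 from edgeR).

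Genes of 6 mitochondrial proteins were called, and all 6 were lower in Gdf15-KO. TIMM23 forms the channel through which proteins with a presequence cross the inner membrane, and TIMM8B is a small chaperone of the intermembrane space. NDUFA8 is a subunit of complex I, cytochrome c carries electrons to cytochrome c oxidase, and COX17 delivers copper to that oxidase. PRELID3B belongs to the PRELI family, whose members carry phospholipids between mitochondrial membranes. This grouping was made after the values were seen and was given no test.

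Promoters of these genes are shown because all 6 were called lower, and they were chosen after the values were seen. Cox17 had no entry. Of the 18 called genes, 12 matched an entry of 250 bases before to 50 after the start in RefSeq (GRCm38.p6). Each is printed along its gene's strand, and capitals mark matches, on either strand, to 5 motifs. These were the NRF1 core (TGCGCA), the ETS family (CCGGAAG), ERR (TCAAGGTCA), SREBP (TCACNCCAC) and the E-box (CACGTG).
Timm23, chr14:32201842-32202141, minus strand: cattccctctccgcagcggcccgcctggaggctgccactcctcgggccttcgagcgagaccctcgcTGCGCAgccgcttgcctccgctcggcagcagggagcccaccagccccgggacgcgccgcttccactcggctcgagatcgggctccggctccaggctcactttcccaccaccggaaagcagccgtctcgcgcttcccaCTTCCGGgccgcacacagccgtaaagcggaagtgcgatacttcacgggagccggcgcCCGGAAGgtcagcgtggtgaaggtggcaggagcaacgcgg
Timm8b, chr9:50603651-50603950, plus strand: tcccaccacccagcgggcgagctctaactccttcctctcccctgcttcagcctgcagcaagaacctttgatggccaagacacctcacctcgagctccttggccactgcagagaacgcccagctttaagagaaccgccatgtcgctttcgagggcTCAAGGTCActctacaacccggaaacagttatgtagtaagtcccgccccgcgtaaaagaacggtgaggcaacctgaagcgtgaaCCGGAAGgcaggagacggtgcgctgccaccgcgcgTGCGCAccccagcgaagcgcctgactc
Ndufa8, chr2:36049289-36049588, minus strand: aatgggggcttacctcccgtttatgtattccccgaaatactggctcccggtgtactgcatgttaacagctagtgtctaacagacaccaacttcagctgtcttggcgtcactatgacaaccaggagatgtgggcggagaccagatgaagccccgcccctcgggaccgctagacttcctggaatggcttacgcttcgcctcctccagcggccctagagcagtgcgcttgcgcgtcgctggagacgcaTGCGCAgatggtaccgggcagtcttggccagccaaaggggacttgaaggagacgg
Cycs, chr6:50566520-50566819, minus strand: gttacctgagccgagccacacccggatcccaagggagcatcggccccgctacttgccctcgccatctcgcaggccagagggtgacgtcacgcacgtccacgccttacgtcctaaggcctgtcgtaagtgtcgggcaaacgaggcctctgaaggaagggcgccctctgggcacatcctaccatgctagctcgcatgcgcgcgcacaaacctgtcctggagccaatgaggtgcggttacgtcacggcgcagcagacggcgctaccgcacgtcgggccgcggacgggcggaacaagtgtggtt
Prelid3b, chr2:174472892-174473191, minus strand: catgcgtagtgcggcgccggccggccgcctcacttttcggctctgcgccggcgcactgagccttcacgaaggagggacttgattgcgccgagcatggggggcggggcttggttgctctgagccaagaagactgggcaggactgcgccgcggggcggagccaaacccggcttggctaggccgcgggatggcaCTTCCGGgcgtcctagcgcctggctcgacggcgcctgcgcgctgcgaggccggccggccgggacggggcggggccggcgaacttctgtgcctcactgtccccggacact
Timm23 held 2 ETS matches and 1 for NRF1, Timm8b 1 each for ERR, ETS and NRF1, Ndufa8 1 for NRF1, Prelid3b 1 for ETS, and Cycs none of the 5, and no matches overlapped. Over the 11830 tested genes with an entry, 13.2% held the NRF1 motif, 16.4% the ETS motif, 0.245% ERR, 1.07% SREBP and 9.62% the E-box. Of the 12 called genes with an entry, 5 held NRF1, 4 ETS, 1 ERR, 1 SREBP and 1 the E-box. A match is a run of letters and not a site shown to be bound. The search took only the letters given, so a promoter without a match, such as that of Cycs, may still hold a looser form of a motif.

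Timm23 (gene ID 53600, chromosome 14 from 31902119 to 31924263) ranged from 67.1 to 84.8 CPM in female Gdf15-KO mice (median 73.5), against 80.5 to 105 CPM in female WT mice (median 90.95). The male values spanned 74.9 to 99.9 CPM in male Gdf15-KO mice (median 81.99), against 85.2 to 120 CPM in male WT mice (median 108). All 12 Gdf15-KO mice were below the WT mean of their sex, with a pooled log2 fold change of -0.29 (SE 0.06, adjusted p = 0.0229 from edgeR). Timm8b (gene ID 30057, chromosome 9 from 50515193 to 50527516) ranged from 16.1 to 21.2 CPM in female Gdf15-KO mice (median 18.02), against 20.02 to 25.3 CPM in female WT mice (median 23.2). In males it ranged from 16.9 to 20.8 CPM in male Gdf15-KO mice (median 19.02), against 18.1 to 28.2 CPM in male WT mice (median 23.9). Its log2 fold change was -0.31 (SE 0.07, adjusted p = 0.0290 from edgeR), close to that of Timm23, and its ranges overlapped in both sexes as well. Ndufa8 (gene ID 68375, chromosome 2 from 35917572 to 35939425) ranged from 39.6 to 50.7 CPM in female Gdf15-KO mice (median 43.6), against 49.2 to 67.1 CPM in female WT mice (median 56.1). Male levels ran from 49.3 to 59.4 CPM in male Gdf15-KO mice (median 54.8), against 46.5 to 78.5 CPM in male WT mice (median 67.1). For Ndufa8 the lowest male WT mouse lay below all male Gdf15-KO mice, and the pooled log2 fold change was -0.31 (SE 0.07, adjusted p = 0.0310 from edgeR).

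Cycs (gene ID 13063, chromosome 6 from 50539541 to 50543557) ranged from 70.4 to 127 CPM in female Gdf15-KO mice (median 91.6), against 114 to 181 CPM in female WT mice (median 129). The male values spanned 80.4 to 139 CPM in male Gdf15-KO mice (median 114), against 101 to 182 CPM in male WT mice (median 164.5). It had the largest change of the 6, with a log2 fold change of -0.50 (SE 0.11, adjusted p = 0.0446 from edgeR), and the largest SE. Cox17 (gene ID 12856, chromosome 16 from 38167353 to 38182659) ranged from 18.6 to 23.4 CPM in female Gdf15-KO mice (median 20.7), against 19.6 to 29.0 CPM in female WT mice (median 25.9). In males it ranged from 19.8 to 24.9 CPM in male Gdf15-KO mice (median 22.4), against 20.4 to 34.5 CPM in male WT mice (median 28.4). Both Cox17 ranges overlapped, and its log2 fold change was -0.32 (SE 0.07, adjusted p = 0.0447 from edgeR). Prelid3b (gene ID 66390, chromosome 2 from 174306851 to 174314874) ranged from 26.3 to 37.9 CPM in female Gdf15-KO mice (median 29.1), against 33.2 to 46.1 CPM in female WT mice (median 36.4). Male levels ran from 29.7 to 36.97 CPM in male Gdf15-KO mice (median 33.4), against 34.6 to 45.6 CPM in male WT mice (median 42.98). Prelid3b had a log2 fold change of -0.32 (SE 0.06, adjusted p = 0.0166 from edgeR), which was the smallest p of the 6.

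The other 8 genes belonged to no common group. Tsku (gene ID 244152, chromosome 7 from 97998341 to 98010711), which encodes a secreted small leucine-rich protein, ranged from 14.6 to 20.9 CPM in female Gdf15-KO mice (median 19.7), against 23.5 to 40 CPM in female WT mice (median 27.8). The male values spanned 17.6 to 26.1 CPM in male Gdf15-KO mice (median 23.4), against 25.4 to 37.4 CPM in male WT mice (median 28.3). Female genotypes did not overlap for Tsku, and its log2 fold change of -0.54 (SE 0.10, adjusted p = 0.00423 from edgeR) was the second smallest p outside the window. Tmem79 (gene ID 71913, chromosome 3 from 88235960 to 88243852), a transmembrane protein known from the skin barrier, ranged from 14.4 to 29.6 CPM in female Gdf15-KO mice (median 16.03), against 19.3 to 64.4 CPM in female WT mice (median 34.6). In males it ranged from 8.03 to 19.2 CPM in male Gdf15-KO mice (median 14.5), against 19.7 to 31.8 CPM in male WT mice (median 24.5). Tmem79 did not overlap between male genotypes and had a log2 fold change of -0.86 (SE 0.18, adjusted p = 0.0192 from edgeR). Mpzl2 (gene ID 14012, chromosome 9 from 44951097 to 44966065), an epithelial and thymic adhesion protein, ranged from 19.1 to 32.4 CPM in female Gdf15-KO mice (median 24.6), against 26.9 to 42.3 CPM in female WT mice (median 33.2). Male levels ran from 9.33 to 15.2 CPM in male Gdf15-KO mice (median 11.96), against 12.5 to 23.3 CPM in male WT mice (median 19.1). Its log2 fold change was -0.52 (SE 0.11, adjusted p = 0.0223 from edgeR), with levels lower in males than in females in both genotypes.

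The remaining genes changed by 13.5% to 18.7%. Atp6v1g1, a subunit of the proton pump that acidifies lysosomes, had a log2 fold change of -0.24 (SE 0.05, adjusted p = 0.0191 from edgeR), and its female genotypes did not overlap. Cacybp, a calcyclin-binding protein, had a log2 fold change of -0.25 (SE 0.05, adjusted p = 0.0283 from edgeR), and 11 of 12 Gdf15-KO mice lay below the WT mean of their sex. Mkks, a chaperonin-like protein of the Bardet-Biedl group, had -0.30 (SE 0.07, adjusted p = 0.0306 from edgeR). Txnl1, a thioredoxin-like protein of the proteasome, had -0.21 (SE 0.05, adjusted p = 0.0320 from edgeR). Leng8 (gene ID 232798, chromosome 7 from 4140005 to 4151180) was the only gene outside the window that was called higher. It ranged from 342 to 401 CPM in female Gdf15-KO mice (median 359), against 307 to 352 CPM in female WT mice (median 332). The male values spanned 351 to 432.5 CPM in male Gdf15-KO mice (median 372), against 295 to 346.5 CPM in male WT mice (median 321). The male genotypes did not overlap, and the pooled log2 fold change was 0.19 (SE 0.04, adjusted p = 0.0345 from edgeR).

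**Figure D2:**
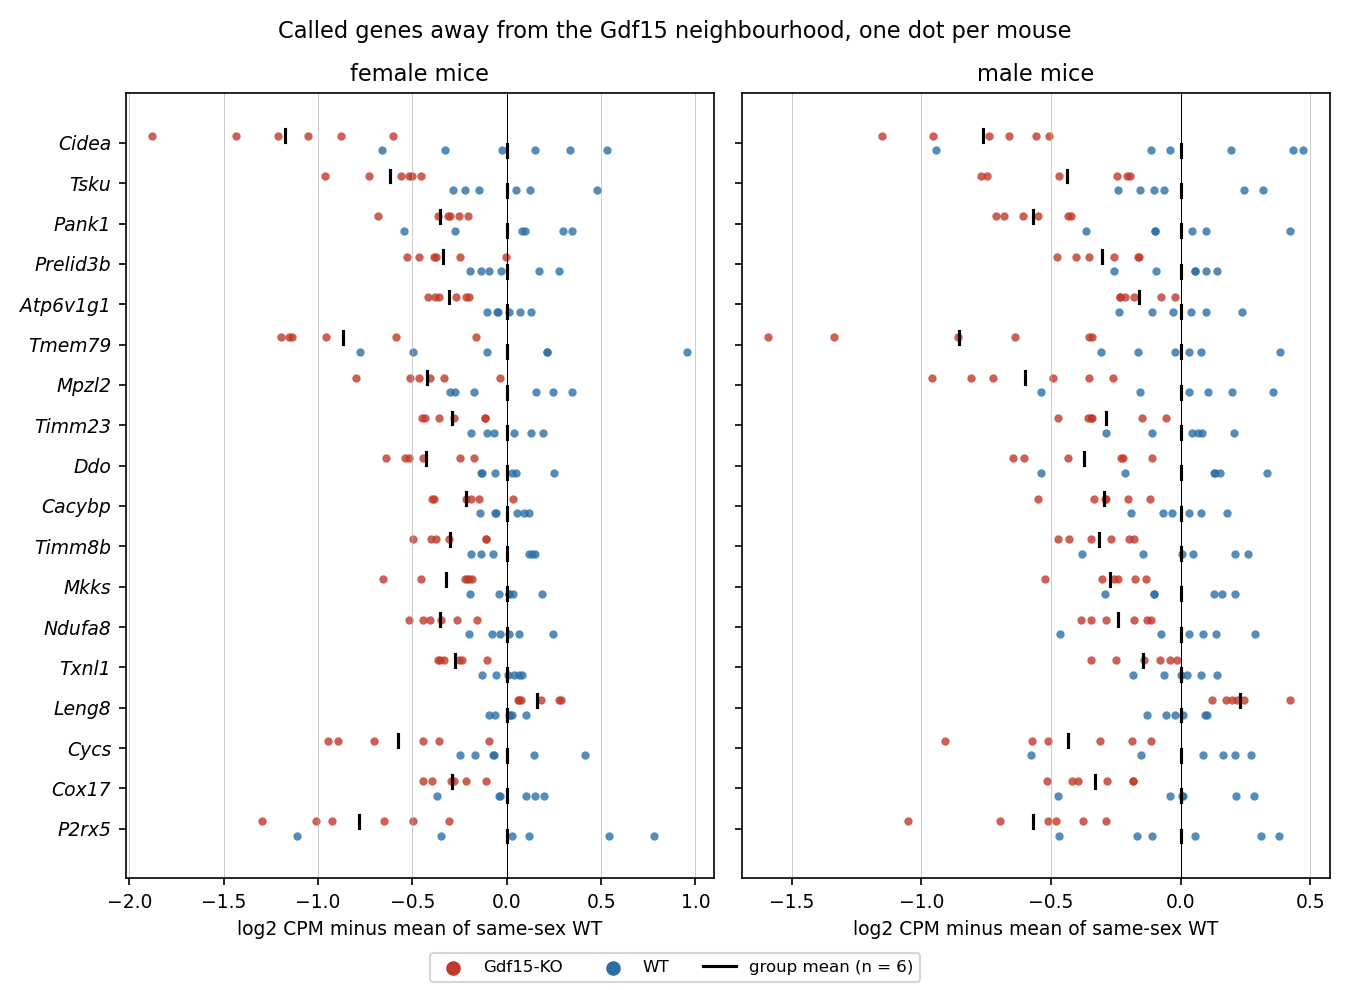
Each dot is the log2 CPM of 1 mouse minus the mean of the 6 WT mice of its sex, with Gdf15-KO (red) above WT (blue) for each gene, females left and males right, and black bars the group means. For 17 genes the red dots lie mostly left of 0, by up to a pooled log2 fold change of -0.99 for Cidea, and for Leng8 they lie right of it.

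Across the 18 genes, changes were small. The median log2 fold change was -0.32, and 13 of the 18 were smaller in size than 0.5. No gene separated the 12 Gdf15-KO from the 12 WT mice completely over both sexes. Within a sex, the genotypes did not overlap for Tsku, Atp6v1g1 and Ddo in females and for Pank1, Tmem79 and Leng8 in males. The 18 were chosen by the genotype test on these same mice, which favours such separation. The share of all genes that did not overlap was not counted, so these cases are a description only. Among the 18, the nearest pairs were Cidea and Txnl1, 3.63 Mb apart on chromosome 18, and Mpzl2 and Timm8b, 5.55 Mb apart on chromosome 9. Both pairs lay closer together than the reach of the window around Gdf15. Whether the genes of such a pair lie in a shared inherited segment was not tested.

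The 18 genes were chosen by the pooled test on these same mice, which favours genes that change alike in both sexes, so their values per sex are a description and support nothing about likeness between the sexes. All 18 genes had the same sign in females and males, and 12 had the larger size in females. In the model with a mean for each of the 4 groups, all 18 had an unadjusted p under 0.05 in each sex, the largest being 0.0156 in females and 0.0322 in males from edgeR. Over all genes, however, Cidea alone of the 18 passed the adjusted threshold in females and none passed in males. Cidea changed by -1.18 in females and -0.82 in males, P2rx5 by -0.87 and -0.58, and Pank1 by -0.38 and -0.59 on the log2 scale. The interaction of genotype and sex was called for 0 of the 14982 genes (0%) in edgeR, with 522 at an unadjusted p under 0.05 and a smallest adjusted p of 0.998. DESeq2 called 0 as well, with 579 at an unadjusted p under 0.05 and a smallest adjusted p of 0.0931. A difference between the sexes was thus not detected, which does not show that they respond alike.

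**Figure D3:**
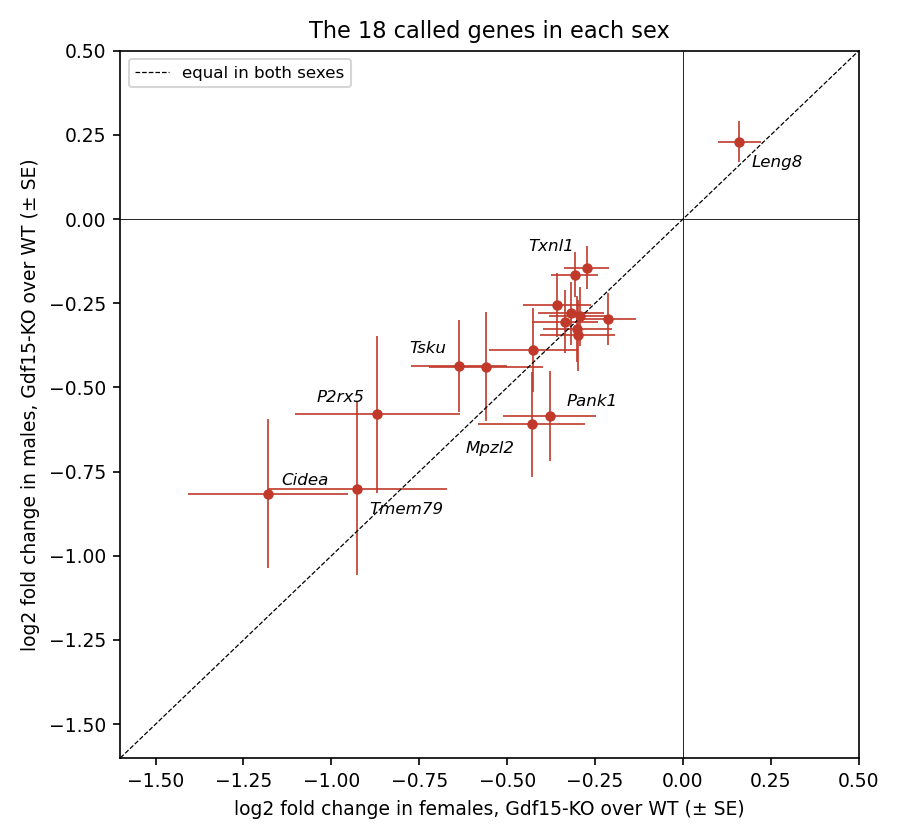
Points are the 18 called genes, with the log2 fold change (Gdf15-KO over WT) in the 12 females on the x axis and in the 12 males on the y axis, bars 1 SE, and the dashed line equal change. Every point lies in the quadrant where both sexes share a sign, and Cidea is the farthest from 0 at -1.18 and -0.82.

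Relatives of the called mitochondrial genes, grouped by symbol after the values were seen, lay mostly below 0 without being called. Of 39 complex I subunit genes 38 had a negative log2 fold change (median -0.25), and 35 had an unadjusted p under 0.05 in that direction. Ndufa8 and 1 gene within the window were called lower. Of 16 cytochrome c oxidase subunit genes all 16 were negative (median -0.27) and 0 were called. All 14 TIM translocase genes were negative (median -0.16), 10 had an unadjusted p under 0.05, and 2 were called, which were Timm23 and Timm8b. Of the 9 TOM translocase genes of the outer membrane 8 were negative (median -0.11), 7 had an unadjusted p under 0.05 and 0 were called, and the difference between the families was not tested. Large and small subunits of the mitochondrial ribosome had 48 of 49 and 29 of 29 genes negative, with medians of -0.12 and -0.13 and only Mrpl34, which lies in the window, called. For comparison, 60 of 78 genes of the cytosolic ribosome were negative with a median of -0.04, and over all genes tested 7349 were negative and 7626 positive with a median of 0.002. Of all genes tested, 8.66% had an unadjusted p under 0.05 with a lower and 4% with a higher level in Gdf15-KO. Called in edgeR were 0.427% of all genes tested and 0.122% of those outside the window. The complex I, TIM and mitochondrial ribosome counts include the called genes themselves. Genes of a family share libraries, so their counts are not independent.

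Lists of lipid synthesis and of mitochondrial metabolism also held mostly negative log2 fold changes with few calls, whereas several other lists were mixed in sign. All 20 genes of de novo lipogenesis were negative, with a median log2 fold change of -0.54, and 15 had an unadjusted p under 0.05, but 0 were called. Acacb, the mitochondrial acetyl-CoA carboxylase, averaged 444 CPM in Gdf15-KO and 710.3 CPM in WT mice, a log2 fold change of -0.69 (SE 0.16, adjusted p = 0.0553 from edgeR). The fatty acid elongase gene Elovl3 averaged 0.297 CPM in Gdf15-KO and 1.03 CPM in WT mice, and had -1.79 (SE 0.46, adjusted p = 0.0926 from edgeR). Thrsp, a lipogenic regulator, had -0.64 (SE 0.17, adjusted p = 0.110 from edgeR), and the fatty acid synthase gene Fasn, named after its value was seen, had -0.61 (SE 0.21, adjusted p = 0.209 from edgeR). DESeq2 called 5 of these 20 lower, against 1.28% of all genes. None of the 20 lies in the window.

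Respiration and the TCA cycle followed. Over all genes tested, 0.394% were called lower in edgeR and 1.28% in DESeq2. Of 34 oxidative phosphorylation genes 34 were negative (median -0.23), 31 had an unadjusted p under 0.05 and 0 were called, with 4 called lower in DESeq2. Ndufb5 came nearest, at -0.28 (SE 0.06, adjusted p = 0.0505 from edgeR). Of 22 genes of the TCA cycle and pyruvate metabolism 21 were negative (median -0.27), 0 were called in edgeR and 6 were called lower in DESeq2. Mpc1, a subunit of the mitochondrial pyruvate carrier, had -0.62 (SE 0.17, adjusted p = 0.110 from edgeR). Fatty acid oxidation had 26 of 27 negative (median -0.20), 0 called in edgeR and 4 lower in DESeq2, led by Hadha, a subunit of the trifunctional protein, at -0.36 (SE 0.09, adjusted p = 0.0698 from edgeR). Cholesterol synthesis had 24 of 26 negative (median -0.28), 0 called in edgeR and 6 lower in DESeq2, led by lanosterol synthase, Lss, at -0.48 (SE 0.12, adjusted p = 0.0801 from edgeR). These counts of 0 depended on single mice and on the model. With a mouse left out, edgeR called Ndufb5 in 8 of 24 fits, Acacb in 6, Lss in 4 and Hadha in 3. Without male WT replicate 4, edgeR called 11 of 34 oxidative phosphorylation, 8 of 22 TCA cycle, 8 of 27 fatty acid oxidation, 4 of 26 cholesterol synthesis and 2 of 20 lipogenesis genes, against 1.71% of all genes. With a score of mammary and epithelial markers as a covariate the same lists had 22, 15, 10, 9 and 9 called, against 3.22% of all genes.

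For the lists below, the shares over all genes were 0.427% called in edgeR (0.122% outside the window) and 1.28% called lower in DESeq2. Brown and beige adipocyte genes had 11 of 13 negative (median -0.49), and Cidea and Pank1 were called. The transcriptional regulators on the list, Prdm16 (-0.03), Ppargc1a (-0.10) and Ebf2 (0.08), had log2 fold changes near 0 with adjusted p from 0.745 to 0.940 in edgeR. Ucp1, which lies in the window, averaged 3.21 CPM in Gdf15-KO and 9.36 CPM in WT mice. It varied widely, with a log2 fold change of -1.51 (SE 0.77, adjusted p = 0.431 from edgeR). These 4 were named after their values were seen. Lipid uptake had 16 of 18 negative (median -0.18), and the 1 call was Lpl, lipoprotein lipase, which lies in the window, at -0.66 (SE 0.10, adjusted p = 0.000290 from edgeR). Of 20 genes of lipolysis and lipid droplets 14 were negative (median -0.08), and Cidea was the only call, whereas the perilipin gene Plin5 had -0.53 (SE 0.15, adjusted p = 0.129 from edgeR). The 35 lipid genes that the study chose on these same samples were all negative (median -0.27), with Cidea and Lpl called, which is no independent evidence of their direction. Triglyceride synthesis had 11 of 15 negative (median -0.12) and NADPH supply 8 of 9 (median -0.26). In either list 0 were called in edgeR and 1 was called lower in DESeq2. V-ATPase and lysosome genes had 19 of 25 negative (median -0.06), with Atp6v1g1 and, in the window, Atp6v1b2 called. The lists of the integrated stress response, unfolded protein response and heat shock, circadian clock, immediate early genes, inflammatory cytokines, cell cycle, extracellular matrix, insulin signalling, branched-chain amino acid breakdown, adipokines and adipocyte identity had medians from -0.08 to 0.06, and 0 members called in edgeR. Of these lists, DESeq2 called 1 lower and 1 higher of 12 adipocyte identity genes and 1 higher of 11 adipokines. It also called 1 lower of 16 unfolded protein response and heat shock genes, against 1.52% of all genes called in DESeq2.

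**Figure D4:**
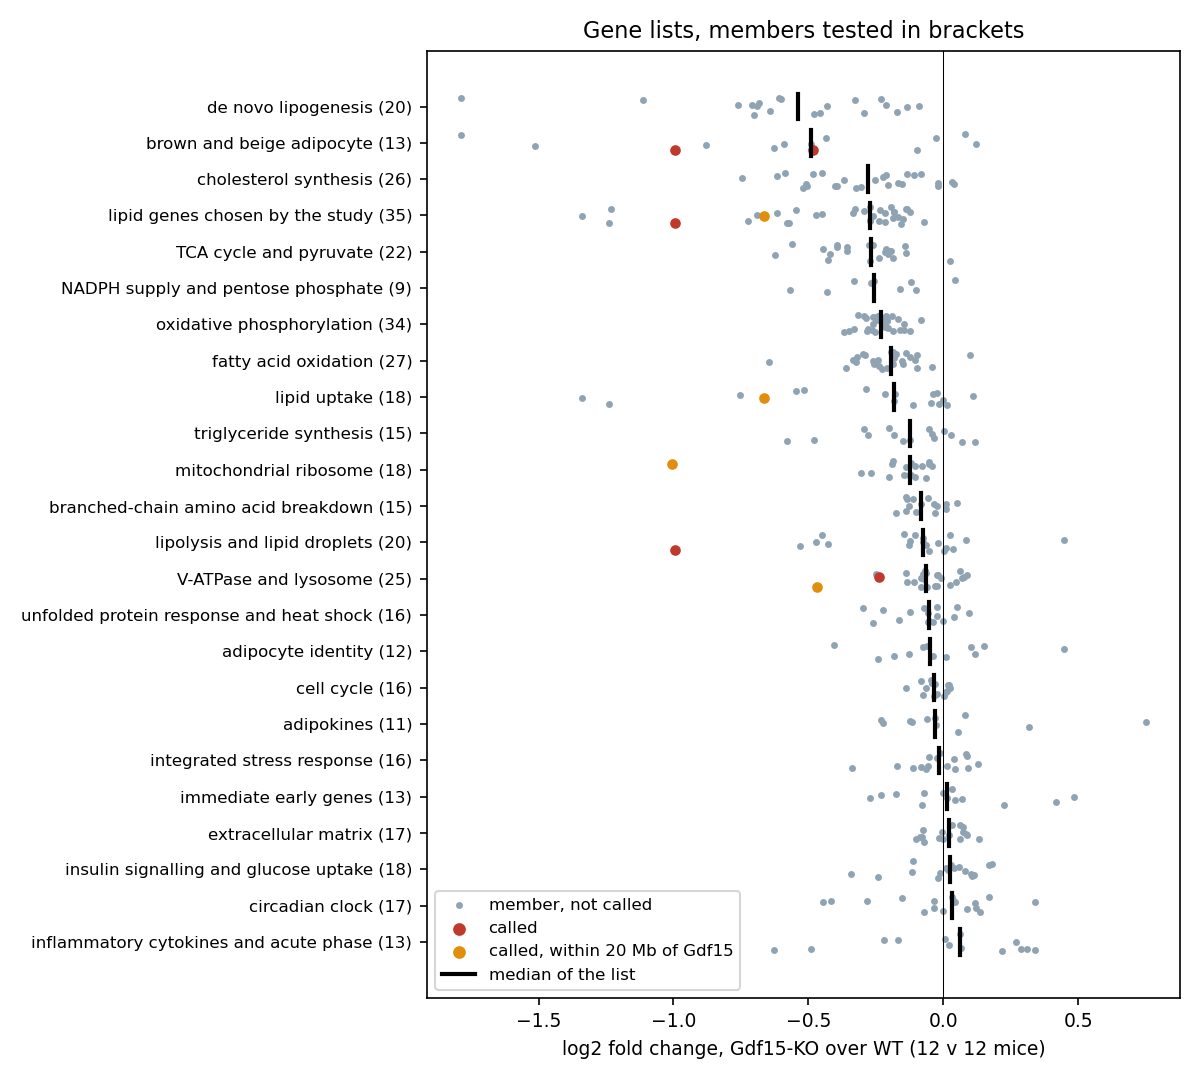
Each point is a tested member of a gene list, placed by its pooled log2 fold change (Gdf15-KO over WT), with black bars the list medians, red called genes outside the window and orange called genes within it. Lists run downward from the lowest median, -0.54 for de novo lipogenesis, to the highest, 0.06 for inflammatory cytokines.

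Markers of several other cell types had log2 fold changes mostly of 1 sign, with 0 members called in any marker list. All 10 tested T cell markers had a positive log2 fold change (median 0.33), and 4 had an unadjusted p under 0.05. Their summed CPM was 227 to 665 in female Gdf15-KO and 254 to 696 in male Gdf15-KO mice, against 232 to 422 in female WT and 280 to 491 in male WT mice, with 0 of the 10 at 0. With a T cell score (the mean log2 CPM of the markers, centred within sex) as a covariate 5 of the 18 genes remained called (Cidea, Tsku, Pank1, Prelid3b and Tmem79), and 20 genes in all were called outside the window, 8 of them lower. The other 13 kept their direction, with adjusted p from 0.0516 to 0.125 in edgeR and log2 fold changes such as -0.26 for Timm23, -0.43 for Cycs and -0.28 for Cox17. With the adjustment over genes outside the window alone, edgeR called 0 under this covariate (Cidea adjusted p = 0.154), and 1798 of all genes had an unadjusted p under 0.05. All 12 tested mammary and epithelial markers were negative (median -0.46). They summed to 819 to 1180 CPM in female Gdf15-KO and 5.30 to 8.92 CPM in male Gdf15-KO mice, against 1040 to 2140 CPM in female WT and 4.79 to 19.7 CPM in male WT mice. Their common sign was lost when few mice were left out. Without the female and male WT mice of lowest adipocyte marker sum, 6 of 12 were negative (median -0.04). Without the mouse of lowest sum in each of the 4 groups, 7 of 12 were negative (median -0.075). With a mammary score as a covariate all 18 remained called and the calls outside the window came to 425 (482 in all, 3.22%). Skeletal muscle markers were negative in 11 of 13 (median -0.79) and summed to between 40.3 and 39800 CPM per mouse, and 16 of the 18 remained called with their score as a covariate. Erythrocyte markers were negative in 6 of 6 (median -0.38), neutrophil markers in 6 of 8 (median -0.57), macrophage markers in 1 of 15 (median 0.08) and B cell markers in 0 of 8 (median 0.06). By sex, the erythrocyte median was -0.809 in females and -0.025 in males, and the neutrophil median was 0.064 in females and -0.503 in males. The mammary and epithelial median was -0.281 in females and -1.561 in males, where the sums were at most 19.7 CPM. Endothelial, Schwann cell, and fibroblast and preadipocyte markers had medians from 0.02 to 0.05, and adipocyte markers were negative in 7 of 10 (median -0.05). The part of these cells in the lower genes was not tested.

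The count of 18 also depended on single mice. With each of the 24 mice left out in turn, 6 to 204 genes were called outside the window. Leaving out male WT replicate 4 gave 204 (257 in all, 1.71%), male Gdf15-KO replicate 15 gave 89, female WT replicate 4 gave 41, male Gdf15-KO replicate 17 gave 32 and male WT replicate 6 gave 28. The count was 11 without female WT replicate 1, and likewise without replicate 18 of female or replicate 14 of male Gdf15-KO, and 10 without male WT replicate 1 or 5. It was 9 without male Gdf15-KO replicate 16, 7 without female WT replicate 2 and likewise without replicate 15 of female or replicate 18 of male Gdf15-KO, and 6 without male WT replicate 2. Cidea, Tsku, Pank1, Prelid3b and Atp6v1g1 remained called in all 24 fits, Tmem79 in 23, Mpzl2 in 21, Timm23 in 16, Ddo, Cacybp, Timm8b and Mkks in 14, and Leng8 in 12. Ndufa8 remained called in 10, Txnl1 in 9, Cycs in 8, P2rx5 in 7 and Cox17 in 6. With the adjustment over genes outside the window alone, Cidea passed in 20 of the 24 fits. No fit turned the direction of any of the 18.

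Female WT replicate 4 and male WT replicate 4 had the lowest adipocyte marker sums of their groups, at 9264 and 12810 CPM. Without both, 402 genes were called outside the window (456 in all, 3.04%, with 2.73% lower), among them 22 of 34 oxidative phosphorylation genes and 5 of 20 lipogenesis genes. Both mice are WT, so leaving them out raises adipocyte genes in WT alone. When the mouse with the lowest sum was left out of each of the 4 groups, 52 genes were called outside the window (99 in all, 0.661%, with 0.601% lower), among them 17 of the 18, but 1 of 34 oxidative phosphorylation and 2 of 20 lipogenesis genes. With the adjustment over genes outside the window alone, 6 passed in that fit.

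**Figure D5:**
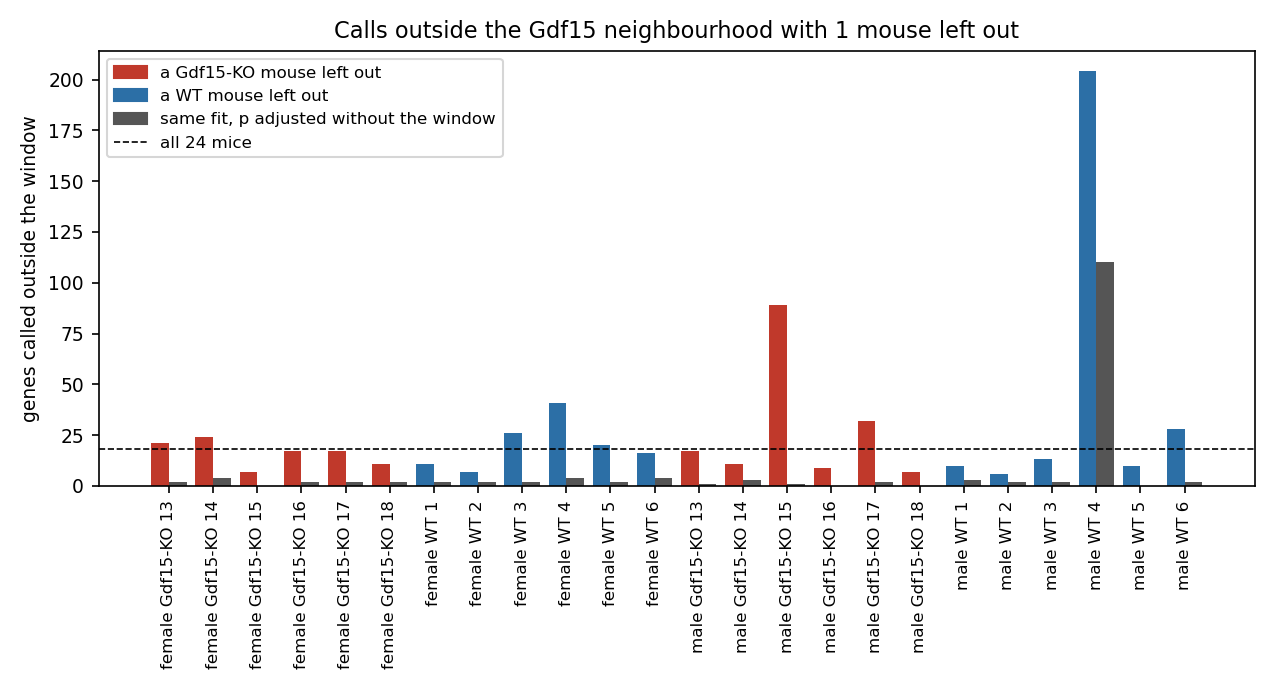
Bars give the number of genes called outside the 20 Mb window in edgeR when the named mouse was left out, in red for Gdf15-KO and blue for WT mice, grey when p-values were adjusted over the genes outside the window alone, and the dashed line marks the 18 of all 24 mice. Leaving out male WT replicate 4 stands highest at 204, with 110 in grey.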

How the data were processed

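RNA-Seq of sWAT from 24 mice was deposited as 1 table of RSEM expected counts for 19175 genes. The authors' reads (150 bp, paired) were adapter trimmed and aligned by BGI (Bowtie2 2.2.5, build GRCm39) and summed to expected counts by RSEM 1.2.8, so genes with near-identical copies share reads by estimate, and 5.07% of the deposited expected counts have decimals (none in the 18 called genes outside the window). They were rounded, filtered by filterByExpr over the 4 groups (minimum count 10, minimum total 15) and normalized by TMM. Genotype with sex as a covariate was fitted in edgeR 4.0.16 (R 4.3.3, quasi-likelihood F test) over all 14982 genes, with Benjamini-Hochberg adjustment. Calls required an adjusted p below 0.05 and no minimum fold change. SE is the log2 fold change divided by the square root of F. No source says that samples come from separate litters, and p-values measure the spread between these 24 samples. No 2 samples were duplicates.

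Positions came from GENCODE M39, where 18144 of 19175 genes matched by symbol, 124 by another name and 907 not at all. DESeq2 1.42.0 and limma 3.58.1 served as alternatives, as did other scalings, filters, thresholds and windows, marker scores as covariates, each sex alone, and each mouse left out. A robust fit, muscle and mammary scores together, the fits without the mice of lowest adipocyte sum, and DESeq2 adjusted outside the window were added after the data were seen. The procedure was tested on simulated data.

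Genes named were all called outside the window, Gdf15, and, from each list, at most the 3 genes of smallest p. Of these list members, those with an unadjusted p of 0.05 or more were left out after their values were seen. The rule for promoters, called lipid synthesis or uptake genes outside the window, selected none, and those shown were chosen after the values were seen, and the NRF1 core took the place of a longer form and a DR1 element that had been searched first. Members, lists and tests were chosen with earlier results of these data known.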

Additional observations from a re-analysis of the deposited data

Results flagged for a closer look

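Of 124 groups of 6 mice examined, for 20 genes and 11 marker lists, 9 held a mouse that stood apart from the other 5 by Dixon's criterion, where chance gives about 1 in 20. Female WT replicate 4 accounted for 4 of the 9. It had 3116 CPM of Lpl (next lowest 5290), a summed adipocyte marker level of 9264 CPM (next lowest 13820), 1077 CPM of erythrocyte markers (next highest 546.7) and 2138 CPM of mammary and epithelial markers (next highest 1251). Male WT replicate 4 had an adipocyte marker sum of 12810 CPM, the lowest of its group, with 18570 CPM next. Neutrophil markers summed to 62.8 CPM in male Gdf15-KO replicate 14 (next highest 30.9) and to 139.6 CPM in male WT replicate 5 (next highest 34.0). Macrophage markers summed to 3600 CPM in female Gdf15-KO replicate 16 (next highest 2637), and T cell markers to 422.5 CPM in female WT replicate 6 (next highest 299.4). None of the 18 called genes outside the window held such a mouse, and the interaction test with sex called none of them.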

How the results depend on the processing

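In 44 alternative fits none of the 18 genes turned its direction. The number of genes called in all and outside the window was 227 and 176 in DESeq2 (129 outside when adjusted there alone), 18 and 1 in females alone, and 30 and 6 in males alone, with none of the 18 among these 1 and 6. With marker scores as covariates it was 482 and 425 (mammary), 462 and 403 (muscle and mammary together), 122 and 71 (adipocyte), 104 and 50 (B cell) and 83 and 34 (macrophage). It was 456 and 402 without both WT mice of lowest adipocyte sum, 99 and 52 without the mouse of lowest sum in each group, 40 and 2 at an adjusted p under 0.01, and 123 and 71 at one under 0.10. Adjustment outside the window left 1. Leaving out each mouse gave 44 to 257 in all and 6 to 204 outside. Other scalings, filters, windows and the robust fit gave 16 to 26 outside, and limma-voom 19 (16 of the 18), or none when adjusted there alone. Same-numbered females and males were correlated at -0.56 to 0.396 over 12 pairs, 9 of them above 0.1, and 4 samples correlated best with their own number, so a shared number was treated as a label only. With the replicate block, limma-voom called 51 genes, 10 outside the window, all 10 among the 18. The interaction gave 0 calls in DESeq2 and in each of the 24 edgeR fits with a mouse left out. The check of genotype is shallow, since WT mice had 7 to 31 Gdf15 counts each.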

Other observations

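Outside the window, genes other than Leng8 with higher levels in Gdf15-KO stayed short of the threshold in edgeR. Adrb3, the beta-3 adrenergic receptor of adipocytes, averaged 350.5 CPM in Gdf15-KO and 255.5 CPM in WT mice. Its log2 fold change was 0.45 (SE 0.11, adjusted p = 0.0743 from edgeR), with an adjusted p of 0.00668 in DESeq2 and of 0.0403 in edgeR with the T cell score as a covariate. Most fits did not call Adrb3, which passed in 2 of 24 fits with a mouse left out and in 4 of 20 other alternative fits. Nnat, neuronatin, averaged 788.5 CPM in Gdf15-KO and 505 CPM in WT mice, a log2 fold change of 0.75 (SE 0.21, adjusted p = 0.134 from edgeR), with an adjusted p of 0.0273 in DESeq2. Proteasome subunit genes, grouped after the values were seen, had 36 of 38 negative log2 fold changes with a median of -0.14, and 0 were called in edgeR and 5 lower in DESeq2, against 7349 of 14982 genes negative and 1.28% of all genes called lower in DESeq2. Hspe1, the mitochondrial chaperonin 10, had -0.30 (SE 0.07, adjusted p = 0.0654 from edgeR) and an adjusted p of 0.00843 in DESeq2.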
